A study of Mus musculus with 6 samples.

Results

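The genes described here encode enzymes, or subunits of them, that build ceramide from serine and a fatty acyl-CoA or carry it on to glucosylceramide. They are the serine palmitoyltransferase (SPT) subunits Sptlc1 and Sptlc2, its small subunits Sptssa and Sptssb, and the reductase Kdsr. The others are the ceramide synthases Cers2 and Cers6, the desaturases Degs1 and Degs2, and the glucosylceramide synthase Ugcg. All 10 were chosen by name from the 23282 genes in the colon count table. The set was picked because Sptssb was higher after PCN in these same libraries. The level of Sptssb in the PCN comparison is therefore given as a description, with no test.

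The colons came from 8-week-old wild-type C57BL/6J mice, and RNA was sequenced from 3 libraries of control mice (Veh, replicates 3, 5 and 6) and 3 libraries of mice given pregnenolone-16α-carbonitrile (PCN, replicates 4, 5 and 6). PCN, a steroid ligand of the rodent pregnane X receptor (PXR), was injected intraperitoneally 3 times at 40 mg/kg, with 8 h between doses, and colons were taken 8 h after the last dose. The PCN was dissolved in DMSO and corn oil, and the labels name the control treatment only as vehicle. The comparison was made to find genes that respond to PXR. Nothing in the sources ties each library to a separate mouse, so the p-values below measure only the spread between these libraries.

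SPT condenses serine with an acyl-CoA on the endoplasmic reticulum, and this is the committed and rate-limiting step of all sphingolipid synthesis. The large subunits Sptlc1 and Sptlc2 need a small subunit for full activity, and the small subunit sets which acyl-CoA is preferred: Sptssa favours palmitoyl-CoA, whereas Sptssb lets the enzyme take the longer stearoyl-CoA and make longer sphingoid bases. In the gut, the ceramides that follow are built into the glycosphingolipids of the brush border, and Degs2 makes the hydroxylated phytoceramides of the epithelium.

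Because Sptssb chose the set and Sptssa is its closest counterpart, their promoters are shown first, from 250 bases before to 50 bases after the transcription start (RefSeq, GRCm38.p6, both genes on the minus strand). Capitals mark GGGCGG, the core of the GC box, and CCAAT, the core of the CCAAT box, each searched on both strands, and none of the marked matches overlap.
Sptssb (chr3:69859845-69860144): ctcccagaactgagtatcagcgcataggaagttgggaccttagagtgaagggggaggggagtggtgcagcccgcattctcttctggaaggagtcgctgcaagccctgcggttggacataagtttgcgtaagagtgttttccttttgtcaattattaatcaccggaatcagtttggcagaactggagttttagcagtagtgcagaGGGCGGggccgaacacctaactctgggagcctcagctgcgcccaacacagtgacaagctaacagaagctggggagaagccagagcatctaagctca
Sptssa (chr12:54656523-54656822): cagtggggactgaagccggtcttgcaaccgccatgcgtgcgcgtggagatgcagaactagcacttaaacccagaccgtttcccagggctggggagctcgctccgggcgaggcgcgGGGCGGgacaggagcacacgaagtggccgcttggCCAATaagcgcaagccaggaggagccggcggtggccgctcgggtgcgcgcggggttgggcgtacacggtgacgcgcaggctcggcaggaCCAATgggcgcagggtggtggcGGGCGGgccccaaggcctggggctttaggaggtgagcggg
The window of Sptssb held 1 GGGCGG and 0 CCAAT, and that of Sptssa held 2 of each. Of all 32841 promoters of this length, 35.7% held GGGCGG and 37.4% held CCAAT. The window of Sptssb had 52.7% GC and 9 CpG, against medians of 52.7% and 7 over all promoters, and that of Sptssa had 70.0% GC and 31 CpG. All 10 genes matched the RefSeq table, with 11 windows because Cers2 has an upstream and a downstream start. Sptssb had the lowest GC content of the 11, and the other 10 windows lay between 54.3% (the downstream window of Cers2) and 81.3% (Ugcg). The core motifs read by nuclear receptors, AGGTCA and AGTTCA, were searched on both strands. They occurred in 16.3% and 14.0% of all promoters and, among these genes, only in the windows of Cers2. Repeats of these motifs in the arrangements that PXR is known to bind, direct repeats 3 or 4 bases apart and everted repeats 6 or 8 bases apart, occurred in 0.0396% and 0.0213% of all promoters and in 0 of the 11 windows. The letters TATAAA occurred in 13.6% of promoters and in 0 of the 11. These matches describe the windows alone, and a site outside them would not be seen.

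The 6 libraries held 21924026 to 25422856 counts over 20538 to 20963 detected genes. As a check of the response, B3galt5, a galactosyltransferase, was at 450.3, 565 and 381 CPM (counts relative to the library total, scaled by edgeR's TMM factors) in Veh replicates 3, 5 and 6 and at 1283, 1371 and 1426 CPM in PCN replicates 4, 5 and 6. It rose by a log2 fold change of 1.55 (edgeR quasi-likelihood test, Benjamini-Hochberg adjusted p = 0.0262). Without Veh replicate 6 or any 1 PCN library the adjusted p lay between 0.0698 and 0.177. The study had singled out B3galt5 from its RNA-seq of PCN-treated mice, so this rise is not an independent check. Veh replicate 3 stood apart from the other vehicle libraries in some gene sets. It was the highest vehicle library for 98 of the 172 genes that DESeq2 called higher after PCN (57.0%), against 34.8% of all genes tested. Its 10 interferon response genes summed to 1483 CPM, against 673 and 312 CPM in Veh replicates 5 and 6 and 227 to 383 CPM in the PCN libraries. Over all genes tested it was not the outlier. By chi-square per gene of the counts, Veh replicates 3 and 6 were the closest vehicle pair at 25.2. Veh replicates 5 and 6 were at 27.5, and 3 and 5 at 43.9. The epithelial markers, from Epcam to Lgals4, were all detected in every library. They summed to 10937 to 11725 CPM in vehicle and 10176 to 12059 CPM in PCN, and 0 of the 9 were called by edgeR or DESeq2, with 1 at an unadjusted p under 0.05.

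Sptssb, the small subunit that widens the chain length used by SPT, was higher in PCN colons. It was at 141, 68.8 and 83.9 CPM in Veh replicates 3, 5 and 6. In PCN replicates 4, 5 and 6 it was at 218, 198 and 194 CPM. Every PCN library lay above every vehicle library, the PCN libraries were close to each other, and Veh replicate 3 lay nearest to the PCN group. The mean went from 97.8 ± 38.0 CPM to 203 ± 12.9 CPM (SD, n = 3 each), a log2 fold change of 1.06 (SE 0.23, edgeR), or 2.08-fold, which was rank 241 of the 16586 genes tested when ordered from the largest increase. Without Veh replicate 3 the log2 fold change was 1.41, and without Veh replicate 5 it was 0.86. The gene (ENSMUSG00000043461) lies at chr3:69819542-69859940 on the minus strand of GRCm38, with 3 or 4 exons in its 2 annotated transcripts, and no annotated gene overlaps it.

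The vehicle libraries varied more in Sptssb than in the other genes of the set. Their coefficient of variation was 38.8%, against 3.58% to 14.8% for the other 9 genes and a median of 8.74% over the 6636 genes with at least 30 CPM, and it was larger than that of 97.8% of those genes. In PCN it was 6.34%. Veh replicate 3 was also the highest vehicle library for 7 of the 9 genes listed as a PXR response check, among them Cyp2c55, Abcb1a and Ces2a. The part of this library's state in the Sptssb difference was not tested.

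Marker lists of 10 other cell types or regions stood beside this difference as follows. DESeq2 called 1.29% of all genes higher and 0.337% lower, edgeR called 0.0362%, and 9.98% of all genes had an edgeR unadjusted p under 0.05. The goblet cell markers summed to 22619 to 27372 CPM in vehicle and 30036 to 42174 CPM in PCN, with all 10 log2 fold changes above 0. DESeq2 called 2 of them higher, Muc2 and Agr2, which encode the main secreted mucin and a disulfide isomerase that helps to fold it, and 5 had an unadjusted p under 0.05. The markers of proliferating crypt cells summed to 201 to 295 CPM and 274 to 478 CPM, with all 10 above 0, 4 called higher by DESeq2 (Mcm2, Mcm3, Mcm5 and Mcm6, subunits of the replicative helicase) and 5 with an unadjusted p under 0.05. Fibroblast markers summed to 1179 to 1489 CPM and 1685 to 2162 CPM, with 7 of 8 above 0, 3 called higher by DESeq2 (Col3a1, Fn1 and Col6a3) and 5 with an unadjusted p under 0.05. Immune cell markers summed to 332 to 756 CPM and 935 to 1485 CPM, with all 8 above 0, 1 called higher by DESeq2 (Jchain, the joining chain of secreted antibody) and 2 with an unadjusted p under 0.05. Surface colonocyte markers summed to 12431 to 17413 CPM and 19429 to 22235 CPM, with 7 of 10 above 0, 1 called higher by DESeq2 (Cyp2c55, also in the PXR response check) and 2 with an unadjusted p under 0.05. These sums follow their most abundant genes. Muc2 was at 14066 to 17047 CPM in vehicle and 20348 to 25743 CPM in PCN. Jchain was at 214 to 484 and 617 to 1195 CPM, and Cyp2c55 at 1070 to 2334 and 3634 to 5017 CPM. Without these genes, the goblet, immune and surface colonocyte sums overlapped between the groups.

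The sums of the other 5 lists overlapped between the groups, as did those of the proliferating markers. Small intestine markers summed to 483 to 666 CPM in vehicle and 528 to 553 CPM in PCN, with 2 of the 9 tested above 0 and 7 below. Of these, Enpep, an aminopeptidase, fell by 1.53 on the log2 scale (edgeR adjusted p = 0.0262). DESeq2 called it and Apoa1, an apolipoprotein, lower, 3 had an unadjusted p under 0.05, and Apoa4 was at 0 in PCN replicate 4. Enteroendocrine markers summed to 520 to 662 CPM and 487 to 574 CPM, with 3 of 8 above 0 and 1 lower at an unadjusted p under 0.05. Enteric glia and neuron markers summed to 67.8 to 111 CPM and 54.5 to 100.3 CPM, with 1 of 7 above 0 and 0 at an unadjusted p under 0.05. Smooth muscle markers summed to 1595 to 2571 CPM and 1443 to 5021 CPM, with all 8 above 0 and 1 at an unadjusted p under 0.05. Endothelial markers summed to 171 to 195 CPM and 177 to 191 CPM, with 3 of 6 above 0 and 0 at an unadjusted p under 0.05. Apart from Enpep, edgeR called 0 genes of the 10 lists, and apart from Apoa4 no marker was at 0 in any library. The part of these cell types in the Sptssb difference was not tested, and in whole colon fewer cells of a type and less RNA per cell cannot be told apart.

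**Figure D1:**
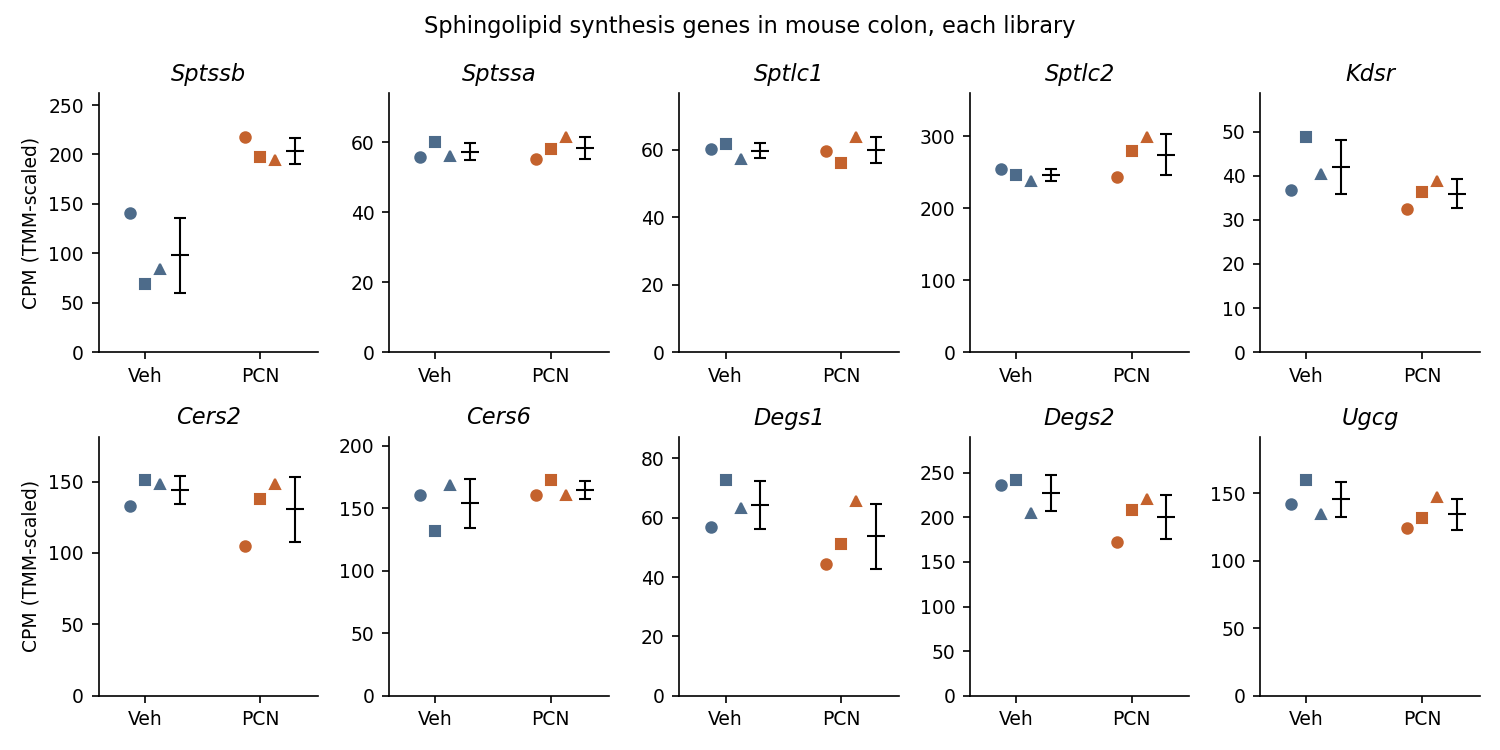
Level of each of the 10 genes in each library, in TMM-scaled CPM on axes that start at 0, with the mean and SD beside each group of 3 (circle, square and triangle stand for Veh replicates 3, 5 and 6 and for PCN replicates 4, 5 and 6). Sptssb lies between 68.8 and 141 CPM in vehicle and between 194 and 218 CPM in PCN, and the groups of each of the other 9 genes overlap.

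The other small subunit, Sptssa (ENSMUSG00000044408, chr12:54645392-54656573, minus strand, with the microRNA gene Mir1892 inside it), did not pass the test. It was at 55.8, 60.1 and 56.0 CPM in Veh replicates 3, 5 and 6 and at 55.2, 58.1 and 61.6 CPM in PCN replicates 4, 5 and 6. The groups overlapped, with PCN libraries at both ends of the range. The log2 fold change was 0.03 (95% interval -0.17 to 0.22, edgeR adjusted p = 0.944). Per length, as FPKM, Sptssb made up 67.7%, 48.8% and 55.5% of the summed level of both small subunits in the vehicle libraries and 76.6%, 73.9% and 72.4% in the PCN libraries. Sptssb was the larger part in every library but Veh replicate 5, and each PCN library was above each vehicle library. The mean share went from 57.3 ± 9.60% to 74.3 ± 2.17% (SD, n = 3 each), a difference of 17.0 percentage points that rests on Sptssb and is given with no test. That difference was 22.2 points without Veh replicate 3 and 12.7 points without Veh replicate 5. The summed FPKM of both small subunits was 5.43 ± 1.16 times that of Sptlc1 in vehicle and 8.92 ± 0.649 times in PCN, again as a description.

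**Figure D2:**
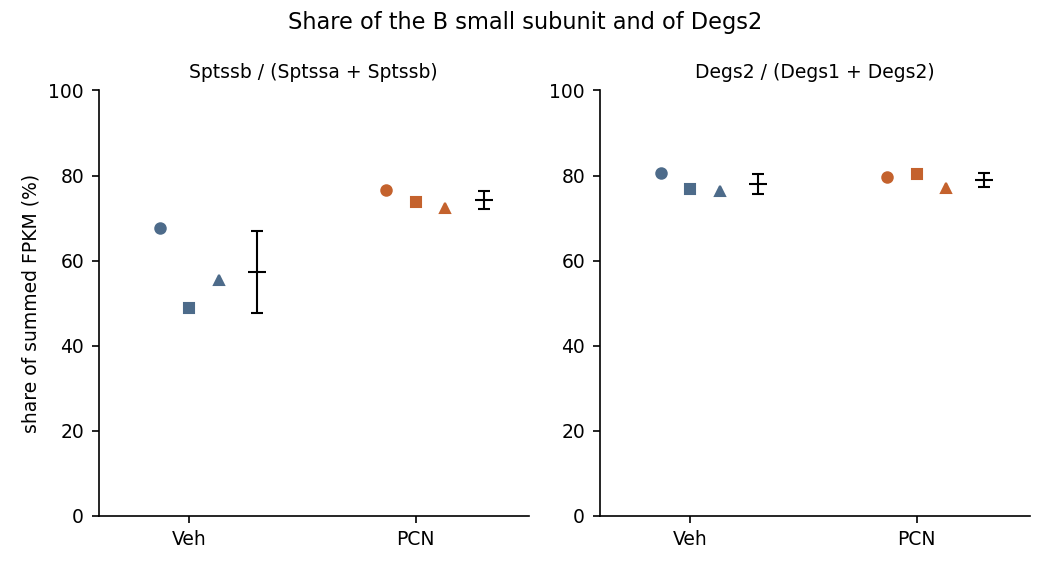
Share of Sptssb in the summed FPKM of Sptssa and Sptssb (left) and of Degs2 in the summed FPKM of Degs1 and Degs2 (right), in percent, for each library, with the mean and SD beside each group of 3 (symbols as replicates). The Sptssb share lies between 48.8% and 67.7% in vehicle and between 72.4% and 76.6% in PCN, whereas the Degs2 share overlaps between the groups.

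The large subunits of SPT showed no change that passed the test. Sptlc1 (chr13:53332748-53377397, minus strand), the subunit common to every SPT complex, was at 60.3, 61.9 and 57.3 CPM in vehicle and 59.6, 56.2 and 64.0 CPM in PCN. Its log2 fold change was 0.00 (95% interval -0.20 to 0.20, edgeR adjusted p = 0.998), so the interval spans 0.872- to 1.15-fold. Sptlc2 (chr12:87305058-87388355, minus strand), which carries the catalytic site, was at 255, 247 and 237 CPM in vehicle and 244, 279.8 and 299 CPM in PCN. PCN replicates 5 and 6 lay above all vehicle libraries and PCN replicate 4 lay among them, with a log2 fold change of 0.16 (95% interval -0.07 to 0.38, edgeR adjusted p = 0.611). The FPKM ratio of Sptlc2 to Sptlc1 was 1.80 ± 0.0525 in vehicle and 2.01 ± 0.198 in PCN (SD, n = 3 each, exact two-sided permutation p = 0.3, where 0.1 is the smallest p that 3 against 3 allows). On the opposite strand of Sptlc2 lie the annotated Gm26764 and Gm48806. Whether the counting used strand is not stated, so reads of overlapping genes on opposite strands may be shared.

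Kdsr and the ceramide synthases carry the base onward to dihydroceramide. Kdsr (chr1:106720459-106759727, minus strand), the reductase that follows SPT, was at 36.8, 48.8 and 40.4 CPM in vehicle and 32.4, 36.4 and 38.9 CPM in PCN. PCN replicates 4 and 5 lay below all vehicle libraries and PCN replicate 6 lay among them, with a log2 fold change of -0.23 (edgeR adjusted p = 0.581, the lowest of the 9 genes tested). Cers2 (chr3:95314791-95323599, plus strand), which adds very long acyl chains, was at 133, 151 and 149 CPM in vehicle and 105, 138 and 149 CPM in PCN. PCN replicate 4 lay below all other libraries, and the log2 fold change was -0.14 (edgeR adjusted p = 0.735). Setdb1 and 6330562C20Rik are annotated on its opposite strand. Cers6 (chr2:68861441-69114282, plus strand), which adds palmitoyl chains, was at 160.5, 132 and 169 CPM in vehicle and 160.4, 172 and 160.2 CPM in PCN. Its lowest library was Veh replicate 5 and the other 5 were close together, with a log2 fold change of 0.10 (edgeR adjusted p = 0.785). The FPKM ratio of Cers2 to Cers6 was 2.30 ± 0.408 in vehicle and 1.92 ± 0.328 in PCN (SD, n = 3 each, exact two-sided permutation p = 0.4).

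The desaturases turn dihydroceramide into ceramide, and Ugcg commits ceramide to glycosphingolipids. Degs1 (chr1:182275772-182282804, minus strand), the desaturase found in most tissues, was at 56.7, 72.7 and 63.4 CPM in vehicle and 44.3, 51.2 and 65.8 CPM in PCN. PCN replicates 4 and 5 were its lowest libraries and PCN replicate 6 lay among the vehicle libraries, with a log2 fold change of -0.26 (95% interval -0.62 to 0.10, edgeR adjusted p = 0.599). Degs2 (chr12:108678711-108702315, minus strand) was at 237, 242 and 205 CPM in vehicle and 172, 208 and 221 CPM in PCN. The groups overlapped, with PCN replicate 4 lowest, and the log2 fold change was -0.18 (edgeR adjusted p = 0.617). Evl and Gm33467 are annotated on its opposite strand. Degs2 made up 78.0 ± 2.35% of the summed FPKM of both desaturases in vehicle and 79.0 ± 1.69% in PCN (SD, n = 3 each, exact two-sided permutation p = 0.7). Ugcg (chr4:59189257-59222833, plus strand) was at 142, 159.7 and 135 CPM in vehicle and 124, 132 and 147 CPM in PCN, which overlapped, with a log2 fold change of -0.12 (edgeR adjusted p = 0.719).

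**Figure D3:**
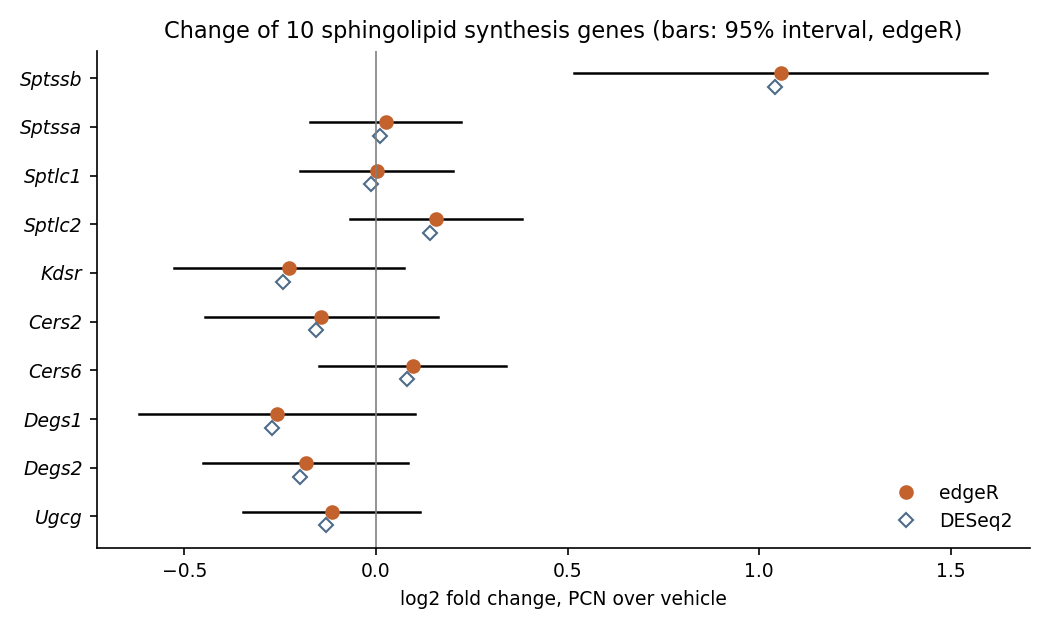
Log2 fold change of PCN over vehicle for the 10 genes, with filled points for edgeR, open diamonds for DESeq2 and bars for the 95% interval of the edgeR fit. Sptssb lies at 1.06, and its bar is no test because the gene was picked for its rise. The bars of the other 9 genes span 0 and lie within -0.62 and 0.38.

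Read against the whole table, none of the 9 genes other than Sptssb was called. Sptssb picked the set and is left out of these counts. At an edgeR adjusted p under 0.05, 6 of 16586 genes were called (0.0362%), and 0 of the 9 members. DESeq2 called 1.29% of its 13369 genes higher and 0.337% lower, and 0 of the 9 members in either direction. An edgeR unadjusted p under 0.05 was reached by 9.98% of genes and by 0 of the 9. All PCN libraries lay above all vehicle libraries for 8.69% of genes and below them for 7.39%, and 0 of the 9 did either. For these 9 genes the 95% intervals ran from 0.652- to 1.302-fold, the lowest adjusted p was 0.581 with edgeR and 0.603 with DESeq2, and the groups of all 9 overlapped. Their median log2 fold change was -0.12, with 4 above 0 and 5 below, and that of all 10 was -0.06, beside 0.01 over all genes tested. PCN replicate 4 was the lowest of the 6 libraries for 6 of the 9, namely Sptssa, Kdsr, Cers2, Degs1, Degs2 and Ugcg, and it was the highest of the 6 for Sptssb. For Sptssa it was only just below Veh replicate 3 (55.2 against 55.8 CPM). The share of all genes tested that were lowest in PCN replicate 4 was not counted, so this is not read as a trait of the set. PCN replicate 4 was also the highest for all 8 smooth muscle markers, such as Myh11 at 1498 CPM against 420 to 848 CPM elsewhere. Posterior Hox genes, listed for position along the colon, summed to 23.4 to 72.8 CPM in vehicle, highest in Veh replicate 5. In PCN they summed to 21.3 to 68.5 CPM, highest in PCN replicate 4. These sums follow Hoxa13 and Hoxb13, whereas Hoxd11 was lowest in these same libraries (2.06 and 2.69 CPM). The part of tissue make-up or position along the colon in the values of PCN replicate 4 was not tested.

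Levels per length placed the B small subunit among the highest of the set. In vehicle, Degs2 was first at 89.4 ± 6.12 FPKM (SD, n = 3 here and below), followed by Sptssb at 54.3 ± 20.6 FPKM. Cers2 at 39.9 ± 3.08 FPKM and Sptssa at 38.3 ± 1.39 FPKM came next, and their libraries overlapped with each other and with Sptssb. Below them were Sptlc2 at 30.8 ± 0.613 FPKM, Ugcg at 28.3 ± 2.10 FPKM and Degs1 at 25.2 ± 3.09 FPKM, each of which overlapped its neighbour. Cers6 at 17.6 ± 2.48 FPKM and Sptlc1 at 17.1 ± 0.347 FPKM also overlapped, and Kdsr was last at 5.23 ± 0.743 FPKM. At the steps from Degs2 to Sptssb, from Sptssa to Sptlc2, from Degs1 to Cers6 and from Sptlc1 to Kdsr, the vehicle libraries did not overlap. In PCN the order began with Sptssb at 109.5 ± 6.57 FPKM and Degs2 at 76.3 ± 9.80 FPKM, then Sptssa at 37.8 ± 2.14 FPKM and Cers2 at 35.0 ± 6.15 FPKM, and the other 6 genes kept their order. In vehicle the level of Sptssb was above that of 95.1% of the genes tested and that of Degs2 above 97.4%, whereas Kdsr was above 54.4%.

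**Figure D4:**
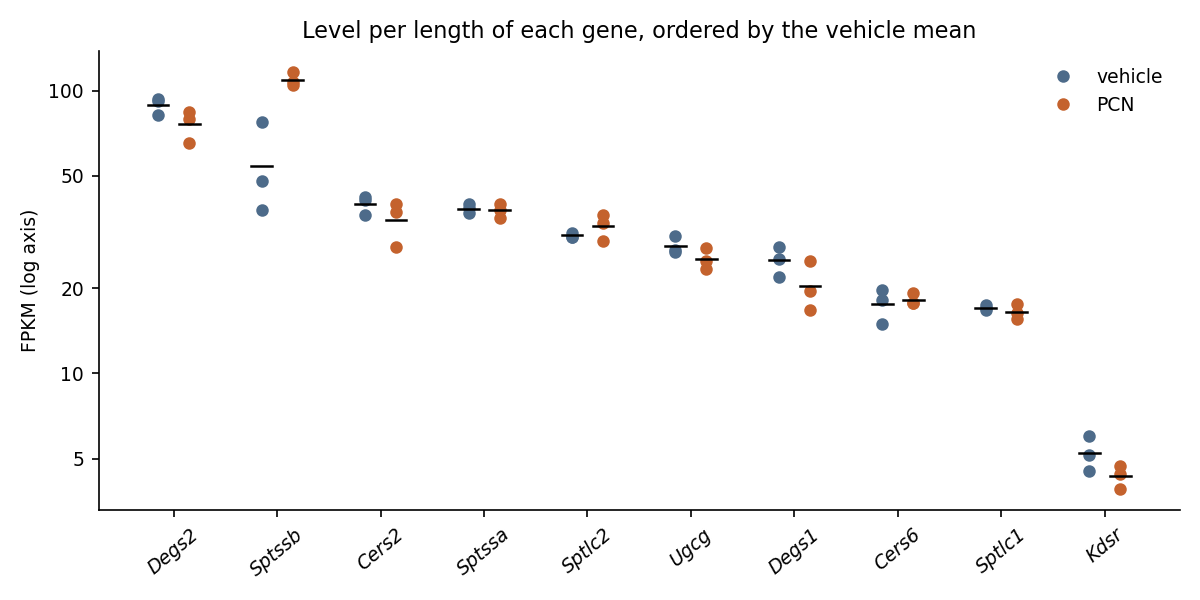
FPKM of each gene in each library on a log axis, ordered by the vehicle mean, with vehicle and PCN libraries side by side and a line at each mean of 3. Degs2 is highest in vehicle at 89.4 FPKM and Sptssb in PCN at 109.5 FPKM, and Kdsr is lowest in both groups.

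The rest of the pathway showed little change that passed a test. Of 83 other sphingolipid genes listed, 80 were in the table and 77 were tested, with 33 log2 fold changes above 0, 44 below and a median of -0.01. edgeR called 1 of the 77 higher and 0 lower, DESeq2 called 1 higher and 1 lower, and 6 higher and 6 lower had an unadjusted p under 0.05, where 9.98% of all genes did. The groups did not overlap for 6 genes that were higher and 8 that were lower, beside 8.69% and 7.39% of all genes. Elovl6, the elongase that makes stearoyl-CoA from palmitoyl-CoA, was at 101, 99.8 and 98.4 CPM in vehicle and 182, 171 and 159 CPM in PCN. The groups were far apart and the vehicle libraries were close together. It rose by a log2 fold change of 0.77 (edgeR adjusted p = 0.0456, DESeq2 adjusted p = 1.59e-10). Over all alternatives its adjusted p ran from the DESeq2 value to 0.249, and neither limma fit called it (0.0711 and 0.0671). With 1 library left out, edgeR no longer called it without Veh replicate 5 (adjusted p = 0.1002), Veh replicate 6 (0.249), PCN replicate 4 (0.140), PCN replicate 5 (0.225) or PCN replicate 6 (0.0698). Neu1, a lysosomal sialidase, was at 268, 368 and 274 CPM in vehicle and 159.6, 174 and 215 CPM in PCN. Every PCN library was below every vehicle library. Its log2 fold change was -0.73, which DESeq2 called lower (adjusted p = 0.00438) and edgeR did not (adjusted p = 0.217), with adjusted p up to 0.511 over the alternatives.

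The genes that restrain SPT and the ceramide synthases outside the set did not pass the test. Ormdl1, Ormdl2 and Ormdl3 encode the endoplasmic reticulum proteins that inhibit SPT when ceramide is high. Their log2 fold changes were -0.19, -0.10 and -0.18, with edgeR adjusted p of 0.669, 0.828 and 0.611, and the groups of all 3 overlapped. Ormdl3 had the highest level of the 3 in vehicle at 17.7 FPKM, beside 15.3 FPKM for Ormdl2 and 3.803 FPKM for Ormdl1. Sptlc3, the alternative catalytic subunit, was not analysed here. Cers4, which adds chains of intermediate length, was at 57.2, 63.0 and 59.1 CPM in vehicle and 53.7, 49.0 and 48.7 CPM in PCN. The groups did not overlap, but the log2 fold change of -0.24 did not pass the test (edgeR adjusted p = 0.437). Cers5, which like Cers6 uses palmitoyl-CoA, had a log2 fold change of -0.18 with overlapping groups (edgeR adjusted p = 0.648). Cers1 and Cers3, known mainly from nervous tissue and skin, were near the detection limit, with means of 0.897 and 0.637 CPM in vehicle and 0.682 and 0.939 CPM in PCN.

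By role, the medians of the groups lay between -0.18 and 0.18. For the SPT regulators the median log2 fold change was -0.14, with all 4 tested below 0, and the other ceramide synthases with the fatty acid hydroxylase Fa2h had -0.18 with 3 of 5 below 0. Sphingomyelin synthesis and lipid transfer had 0.18 with 6 of 8 above 0, and of these 8 the groups did not overlap for Sgms2, Cptp and Plekha8, named after their values were seen (3 of 8 above, beside 8.69% of all genes). Sgms2, a sphingomyelin synthase, was at 65.2, 77.3 and 65.0 CPM in vehicle and 79.1, 78.2 and 77.9 CPM in PCN, a log2 fold change of 0.18 that did not pass the test (edgeR adjusted p = 0.540). The remaining groups had medians of -0.01 for glycosphingolipid synthesis (14 genes), -0.003 for the breakdown of ceramide and sphingomyelin (9 genes), -0.01 for the breakdown of glycosphingolipids (12 genes), -0.06 for sphingosine 1-phosphate (12 genes) and -0.02 for the supply of long acyl-CoA (13 genes). The lowest of the 77 was Ugt8a, which makes galactosylceramide, at -0.93 with overlapping groups (edgeR adjusted p = 0.479).

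**Figure D5:**
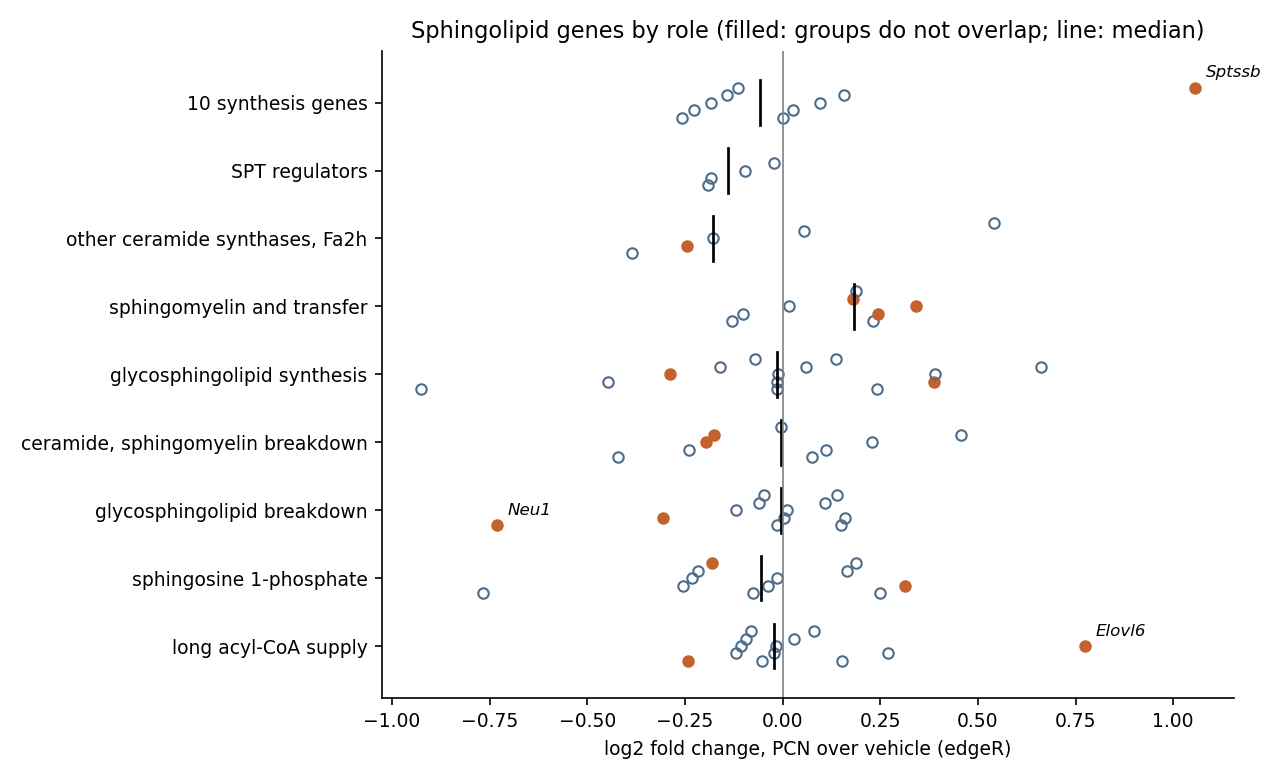
Log2 fold change of PCN over vehicle (edgeR) for each sphingolipid gene tested, in rows by role, with filled points where the groups of 3 do not overlap and a vertical line at the median of each row. Sptssb at 1.06 and Elovl6 at 0.77 lie to the right, Neu1 at -0.73 to the left, and the row medians lie between -0.18 and 0.18.

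The genes whose profiles over the 6 libraries were nearest to that of Sptssb were found by the root mean square difference of centred log2 CPM among 10289 genes with a mean of at least 10 CPM. They were Sult1c2 (0.10), Plet1 (0.14), Etv5 (0.15), Ccnd1 (0.15), Myb (0.16) and Clca4a (0.17). Sult1c2, a cytosolic sulfotransferase, was at 19.4, 10.2 and 11.5 CPM in vehicle and 33.5, 29.2 and 24.1 CPM in PCN. Ccnd1, the cell cycle regulator cyclin D1, was at 71.3, 38.2 and 46.5 CPM in vehicle and 101.5, 84.8 and 83.8 CPM in PCN. Myb, a transcription factor of crypt progenitors, was at 57.9, 26.9 and 41.6 CPM in vehicle and 76.4, 71.3 and 80.1 CPM in PCN. In all 6, Veh replicate 3 was the highest vehicle library and every PCN library lay above it, which follows from choosing them for likeness to Sptssb.

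No gene tested beside Sptssb on chromosome 3 passed the test. Within 1000 kb of the gene lay 8 tested genes, all on its downstream side. The nearest, Nmd3, which exports the large ribosomal subunit, lay 63.2 kb away with a log2 fold change of 0.03. B3galnt1, the globoside synthase of glycosphingolipid synthesis, lay 220.6 kb away with 0.06. The largest value of the 8 was 0.53 for Arl14, a small GTPase, at 595.9 kb, and no adjusted p of the 8 was below 0.388 (edgeR).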

How the data were processed

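RNA-seq libraries of mouse colon, 3 labelled vehicle and 3 labelled PCN, were analysed. The authors deposited read counts per gene, and also FPKM values, whose computation is not stated. The supplementary methods name poly-A selected TruSeq libraries, STAR and HTSeq, and a pig assembly, whereas the labels give another kit and mm10. The table is keyed by Ensembl mouse gene identifiers, so a mouse genome was taken to have been used. The deposited fold changes, p-values, adjusted p-values and regulation marks, which hold the authors' own comparison, were not used. Deposited coordinates differed from GRCm38 and were replaced by GENCODE M21 positions.

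The members and lists were chosen with earlier results of these data known. Named are the 10 members, the other sphingolipid genes that passed an adjusted p of 0.05 or did not overlap and went beyond 0.5 on the log2 scale, Sptlc3, the Ormdl genes and the other ceramide synthases Cers1, Cers3, Cers4 and Cers5, the 6 genes nearest in profile to Sptssb, B3galt5, and marker genes beside a result. Ugt8a, Sgms2, Cptp, Plekha8 and the neighbours of Sptssb were added after their values were seen.

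Counts were fitted with edgeR 4.0.16 in R 4.3.3 (TMM, filterByExpr at min.count 10 and min.total.count 15, quasi-likelihood test) and p-values adjusted by Benjamini-Hochberg over 16586 genes at 0.05. The common biological coefficient of variation was 0.199. Alternatives were DESeq2 1.42.0, no filter, each library left out, a replicate block, and limma 3.58.1 on log2(FPKM + 1) and log2(FPKM + 0.1) of the deposited FPKM. For the shares, counts without length correction were the alternative. Log2 CPM profiles used a prior count of 2. The Degs2 share and the ratios of Sptlc2 to Sptlc1 and of Cers2 to Cers6 were compared by exact permutation. The share and the ratio that hold Sptssb were given with no test. Replicates differed beyond sampling noise (chi-square per gene of 22.8 to 47.0), and each library counted once. Separate preparations from the same mouse could differ in this way too, so it does not show that the libraries are separate mice. The fits were tested on simulated counts.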

Additional observations from a re-analysis of the deposited data

How the results depend on the processing

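Over all genes, the 6 edgeR calls became 217 with DESeq2, 27 without the filter and 74 with a replicate block, of which 6, 6 and 5 were among the 6. Leaving out 1 library gave 0 to 24 calls: 24 without Veh replicate 3, 4 without Veh replicate 5 (2 of the 6), and 0 without Veh replicate 6, PCN replicate 4, PCN replicate 5 or PCN replicate 6, where 1091, 1183, 1279 and 1790 genes had an unadjusted p under 0.05. limma called 5 and 4 genes at the larger and smaller pseudocount. Deviations of same-numbered libraries correlated at -0.15 (number 5) and -0.09 (number 6), against -0.11 to 0.16 for the other pairs. So few pairs cannot decide whether same-numbered libraries share more than a number. With the block Sptssb was at 1.37 and the call of Elovl6 was lost (edgeR adjusted p = 0.0791). Of the 9 genes other than Sptssb, 0 were called under each of the 12 settings. The median of the set lay between -0.13 and -0.002 over the libraries left out. Values near 0 changed sign. Sptssa was at -0.0198 and -0.0203 with limma at the larger and smaller pseudocount, and at -0.0339 (without PCN replicate 6) to 0.0632 over the libraries left out. Sptlc1 was at -0.0127 with DESeq2, -0.0133 without the filter, -0.0421 and -0.0445 with limma, and -0.0659 (without PCN replicate 6) to 0.0458 over the libraries left out, with -0.0293 without Veh replicate 6. Cers6 was at -0.00261 (without Veh replicate 5) to 0.168. The cause was not tested. From counts without length correction, the Sptssb share was 16.0 points higher in PCN than in vehicle, beside 17.0 points from FPKM. With 3 libraries a group, the 95% intervals of the 9 genes leave differences of up to 0.652- and 1.302-fold possible.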
